A study of Mus musculus with 7 samples.

Results

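Nuclear receptors that sense retinoids, oxysterols and fatty acids were followed in microglia of the mouse hippocampus: the 3 retinoid X receptors Rxra, Rxrb and Rxrg, the 3 retinoic acid receptors Rara, Rarb and Rarg, the liver X receptors Nr1h2 and Nr1h3, and the peroxisome proliferator-activated receptors Ppard and Pparg. They are 10 of the 55401 genes in the deposited count table and were chosen by their symbols, around Rxrg, which had been selected on its difference between the same groups compared here. Values of these 10 genes are therefore given as a description, and how many of them the fit over all genes called is counted but not used as evidence.

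All mice were C57BL/6, aged 6-8 weeks, and had been injected in the dorsal dentate gyrus with AAV-RAM-Cre, a virus whose promoter is active in neurons engaged by an experience. In the control group (EYFP, 4 libraries) the second virus, AAV-Dio-EYFP, supplied a Cre-dependent fluorescent protein, and in the other group (ATG7, 3 libraries) AAV-Dio-Atg7-Flag supplied the autophagy gene Atg7. The overexpression was thus directed at neurons, while the RNA came from cells of the dorsal hippocampus enriched with CD11b beads, and the comparison asks how microglia differ when the engram neurons beside them overexpress Atg7. The labels do not say whether a library is 1 mouse or a pool, so p-values measure the spread between these libraries.

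A retinoid X receptor binds DNA as a dimer, either with itself or with a partner such as a retinoic acid receptor, a liver X receptor or a peroxisome proliferator-activated receptor. The partner's ligand and the spacing between the DNA half-sites set which genes a pair controls. In microglia and other macrophages the liver X and peroxisome proliferator-activated partners are known for control of cholesterol efflux, lipid storage and inflammatory genes, while Rxrg is best known from striatal neurons, muscle and the oligodendrocyte lineage.

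Depth lay between 35934210 counts (EYFP 1) and 55217119 counts (ATG7 2), and levels are given as CPM, counts relative to that depth. A floor of 3 counts was 0.0543 to 0.0835 CPM. The summed level of 8 microglial markers was 18670 to 22610 CPM in EYFP and 18560 to 22870 CPM in ATG7. The enrichment was partial, since 9 markers of the choroid plexus epithelium summed to 55170 to 72760 CPM in EYFP and 46760 to 61510 CPM in ATG7. EYFP 3 stands apart: Xist, the RNA of the inactive X chromosome, was at 938.5 CPM there and between 0.151 and 0.574 CPM in the other 6 libraries, although the series names its mice as male. Fitted changes without that library are given below for the receptor genes and for Ch25h, Scd1 and Tgm2.

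The sequences before the Rxrg start sites are shown because Rxrg is the gene the comparison turns on, and a retinoic acid response element of Rarb is shown as the reference for what a receptor binding site looks like. RefSeq (GRCm38.p6) lists 2 start sites for Rxrg. The first window, chr1:167598112-167598361 on the plus strand, lies before the gene's outermost start, and the second, chr1:167618015-167618264 on the same strand, lies in an intron of the longer transcripts. Capitals mark nuclear receptor half-sites and, in the Rarb sequence, the whole direct repeat with the bases between its half-sites. The half-sites were searched on both strands in 4 forms. The forms were the consensus AGGTCA, its relative GGGTCA with another first base, and the pair that makes up the Rarb repeat, GGTTCA on the left and AGTTCA on the right.
Rxrg first start: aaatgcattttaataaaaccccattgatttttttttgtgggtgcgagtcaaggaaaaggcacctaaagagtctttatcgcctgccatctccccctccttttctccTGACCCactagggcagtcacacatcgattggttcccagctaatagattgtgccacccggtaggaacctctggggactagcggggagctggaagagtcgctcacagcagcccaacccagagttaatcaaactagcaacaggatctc
Rxrg second start: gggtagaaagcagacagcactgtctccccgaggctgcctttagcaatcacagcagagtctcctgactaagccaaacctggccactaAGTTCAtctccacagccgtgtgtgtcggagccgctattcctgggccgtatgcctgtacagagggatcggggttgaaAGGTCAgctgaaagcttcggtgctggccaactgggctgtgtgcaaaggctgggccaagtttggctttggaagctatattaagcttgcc
Rarb repeat: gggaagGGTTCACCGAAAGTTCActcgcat

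The first Rxrg window held 1 half-site, on the minus strand, and the second held 2 on the plus strand. A half-site of these letters is common, being present in 38.6% of the 32807 promoter windows of 250 bases, and in 8 of the 20 windows of the 10 receptor genes. Half-sites arranged as direct repeats are rare. Repeats spaced by 1, 2, 4 or 5 bases were found in 0.165%, 0.174%, 0.0671% and 0.0884% of all windows. Among the receptor genes the only one was the Rarb repeat with a spacing of 5 shown above, at chr14:16575506-16575535 on the minus strand, the textbook element through which retinoic acid receptors act on their own gene. Its own half-sites were among the forms searched, so this match was fixed in advance and nothing is read from it. The repeat lies before the RefSeq start, but the printed stretch overlaps 2 Rarb exon entries of GENCODE. TTCNNNGAA, the STAT motif, was in 7.02% of all windows and in those of Rara and Rarb, where the Rarb match overlaps the direct repeat. These are matches of letters, not measured sites, and counts per gene do not show from which start the Rxrg reads came.

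Rxrg (ENSMUSG00000015843, chr1:167598384-167639623, plus strand, in GENCODE M21 on GRCm38) was low in every EYFP library and higher in every ATG7 library. The EYFP libraries 1 to 4 held 35, 42, 38 and 36 Rxrg counts, and the ATG7 libraries 1 to 3 held 99, 154 and 133. Scaled by depth and the trimmed mean of M values (TMM), these were 0.956, 0.916, 0.843 and 0.884 CPM in EYFP against 2.47, 2.80 and 2.86 CPM in ATG7. The groups did not overlap, and the lowest ATG7 library stood above the highest EYFP library by more than the range within either group. The means were 0.900 ± 0.0482 CPM (SD, n = 4) and 2.71 ± 0.209 CPM (SD, n = 3), a ratio of 3.02, and edgeR fitted a log2 fold change of 1.59 (SE 0.20).

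These levels rest on few reads, 151 in all EYFP libraries and 386 in all ATG7 libraries. The exact Poisson 95% intervals, which cover counting error only, reached at most 1.33 CPM in the EYFP libraries and began at 2.01 CPM or above in the ATG7 libraries. The EYFP values lay closer together than counting alone would place them, with a coefficient of variation of 5.36% against 16.3% from counting. In the ATG7 group it was 7.70% against 8.82%. The log2 fold change was between 1.55 and 1.65 with any 1 library left out, and was 1.55 without EYFP 3.

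Of the 10 receptor genes, 1 passed an edgeR adjusted p under 0.05, and that gene was Rxrg. The background is 0.755% of the 19199 genes tested, and 0.688% for genes higher in ATG7. DESeq2 also called 1 of the 10, against 3.24% of the genes it tested. The EYFP and ATG7 values did not overlap for 1 of the 10, against 11.2% of all genes tested. Since Rxrg was selected on this contrast, nothing is read from these counts. Among the 132 genes called higher in ATG7, whose median log2 fold change was 0.89, there were 14 with a larger log2 fold change than Rxrg.

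**Figure D1:**
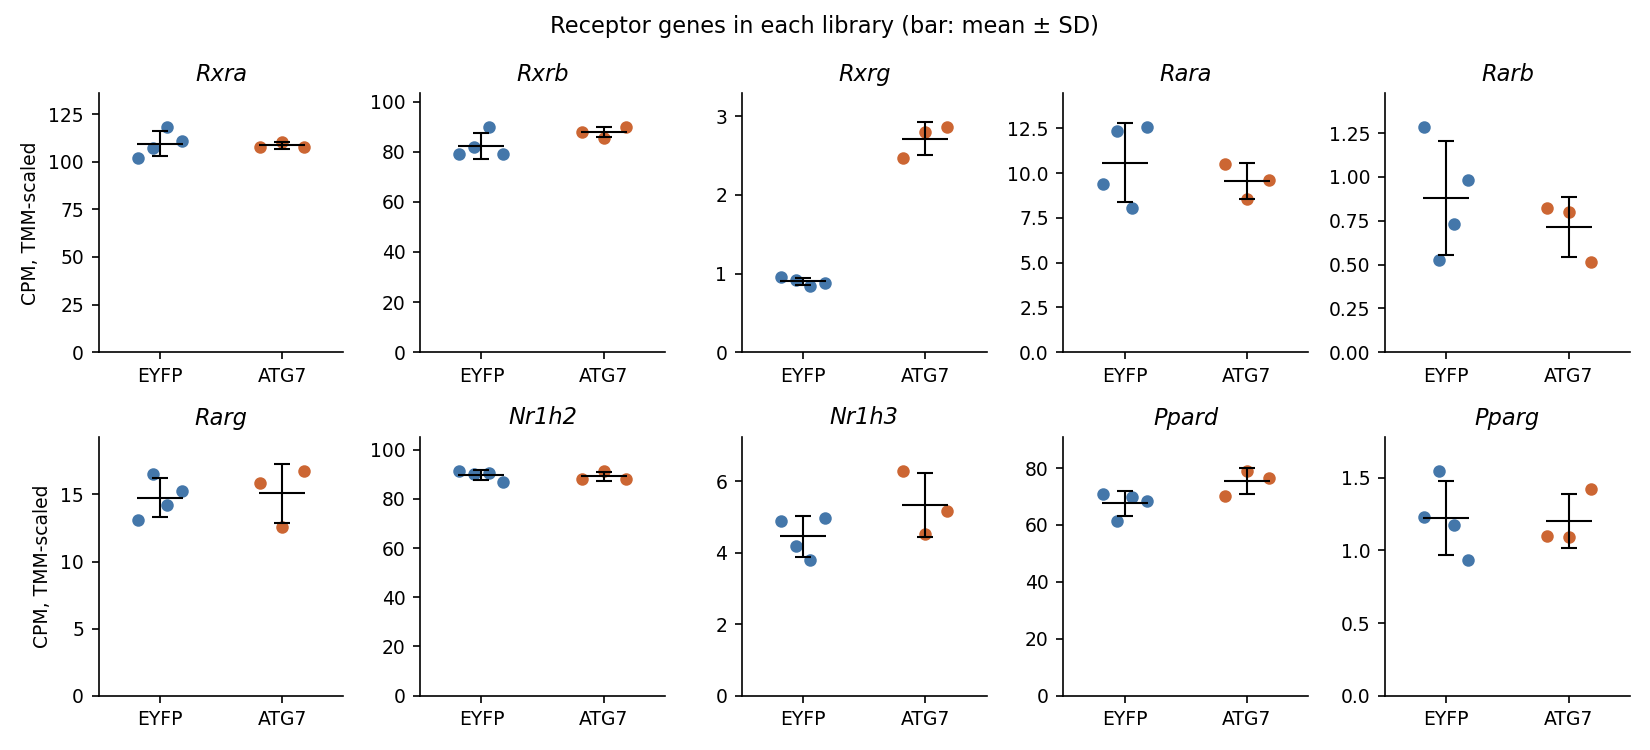
Each panel plots 1 receptor gene as TMM-scaled CPM (linear axis from 0) in the 4 EYFP and 3 ATG7 libraries, with points for libraries and a bar for the mean ± SD. The Rxrg values lie at 0.843 to 0.956 CPM in EYFP and 2.47 to 2.86 CPM in ATG7, and the values of the other 9 genes overlap between the groups.

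The other retinoid X receptors carry most of the family's expression. Rxra (chr2:27676440-27762957), the isotype found in most tissues, measured 102, 107, 118 and 111 CPM in EYFP 1 to 4 beside 107.7, 110.5 and 107.5 CPM in ATG7 1 to 3. All ATG7 values fell inside the EYFP range, and the log2 fold change was -0.01 (SE 0.07). Rxrb (chr17:34031812-34038399), the other broadly expressed isotype, measured 79.0, 81.9, 89.8 and 78.9 CPM in EYFP against 88.1, 85.7 and 89.8 CPM in ATG7. Its ATG7 libraries were all above EYFP 1, EYFP 2 and EYFP 4, and EYFP 3 lay among them, and the log2 fold change was 0.09 (SE 0.07).

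Per kb of exon, which allows levels of different genes to be compared, Rxrg made up 0.955% ± 0.102 (SD, n = 4) of the summed level of the 3 isotypes in EYFP and 2.73% ± 0.198 (SD, n = 3) in ATG7. Rxra held 48.7% ± 0.921 and 46.0% ± 0.918 of that sum, and Rxrb 50.4% ± 0.897 and 51.2% ± 0.955. The sum itself was 41.2 ± 2.39 CPM per kb in EYFP and 43.2 ± 0.314 CPM per kb in ATG7. The share of Rxrg thus stayed small in both groups beside Rxra and Rxrb.

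The retinoic acid receptors pair with retinoid X receptors and respond to all-trans retinoic acid. Rara (chr11:98927818-98974942) measured 9.42, 12.3, 8.05 and 12.6 CPM in EYFP 1 to 4 beside 10.5, 8.54 and 9.61 CPM in ATG7 1 to 3. The EYFP values spread over the whole ATG7 range, with a log2 fold change of -0.15 (SE 0.16) that was -0.27 without EYFP 3 and -0.06 without EYFP 4. Rarg (chr15:102234938-102257517) measured 13.1, 16.6, 14.2 and 15.2 CPM in EYFP against 15.9, 12.6 and 16.8 CPM in ATG7. Its lowest and highest libraries were both in ATG7, and the log2 fold change was 0.03 (SE 0.12).

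Rarb (chr14:16430839-16819156), a retinoic acid receptor that is itself a target of retinoic acid, had the lowest level of the 10 per kb of exon. It measured 1.28, 0.523, 0.732 and 0.982 CPM in EYFP against 0.824, 0.801 and 0.516 CPM in ATG7. The values overlapped and rested on 245 counts in all 7 libraries, with a log2 fold change of -0.29 (SE 0.35). Single libraries moved it widely, to -0.06 without EYFP 1 and -0.48 without EYFP 2. They are uncertain for another reason: 34.1% of the exon bases of Rarb also lie in exons of Top2b on the opposite strand. Top2b, a DNA topoisomerase, had 40393 counts in all, and the sources used here do not say whether counting used strand.

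The liver X receptors bind oxysterols and turn on cholesterol efflux. Nr1h2 (chr7:44549616-44553951), the widely expressed form, measured 91.4, 90.3, 90.7 and 86.8 CPM in EYFP 1 to 4 beside 87.9, 91.3 and 88.2 CPM in ATG7 1 to 3. It was the least variable of the 10 in EYFP, with a log2 fold change of -0.01 (SE 0.06). Nr1h3 (chr2:91184061-91202834), the form enriched in macrophages and liver, measured 4.89, 4.19, 3.79 and 4.98 CPM in EYFP against 6.30, 4.51 and 5.18 CPM in ATG7. The ATG7 1 and ATG7 3 values were above all EYFP values and ATG7 2 was not, with a log2 fold change of 0.26 (SE 0.17). Without ATG7 1 it was 0.12, and its exons share 34 bases, 1.35% of their length, with the transcript Gm13783 on the same strand.

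Ppard and Pparg encode receptors for fatty acids and their derivatives. Ppard (chr17:28232700-28301474), the broadly expressed form, measured 71.1, 61.3, 69.9 and 68.4 CPM in EYFP 1 to 4 beside 70.3, 79.1 and 76.6 CPM in ATG7 1 to 3. ATG7 2 and ATG7 3 were the highest libraries while ATG7 1 lay below EYFP 1, and the log2 fold change was 0.16 (SE 0.07). Pparg (chr6:115360951-115490399), the adipocyte and macrophage form, measured 1.23, 1.55, 1.18 and 0.933 CPM in EYFP against 1.10, 1.09 and 1.42 CPM in ATG7. All ATG7 values fell inside the EYFP range, with a log2 fold change of -0.02 (SE 0.25) that took either sign as single libraries were left out.

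By log2 fold change, 5 of the 10 genes were above 0 and 5 below, and 9 lay within 0.3 of 0. The median was 0.00881, beside -0.00365 over all 19199 genes tested. All 10 genes passed the filter on low counts. Without EYFP 3 the log2 fold change was 0.02 for Rxra, 0.13 for Rxrb, -0.37 for Rarb, 0.00395 for Rarg, -0.01 for Nr1h2, 0.18 for Nr1h3, 0.17 for Ppard and -0.05 for Pparg.

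On the scale of CPM per kb of exon, the mean over the 7 libraries placed Nr1h2 first at 26.7 ± 0.549 (SD, n = 7), then Rxrb at 21.3 ± 1.20, Rxra at 19.98 ± 0.897 and Ppard at 9.44 ± 0.768. The levels of Rxrb and Rxra overlapped, with Rxrb above in 6 of 7 libraries. Below them came Rarg at 3.50 ± 0.387, Rara at 2.33 ± 0.404 and Nr1h3 at 1.92 ± 0.320 CPM per kb. Rara and Nr1h3 overlapped, with Rara above in 6 of 7 libraries. Rxrg followed at 0.392 CPM per kb in EYFP and 1.18 CPM per kb in ATG7, Pparg at 0.411 ± 0.0709, and Rarb at 0.154 ± 0.0508 CPM per kb.

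By the group means, Rxrg and Pparg were the only neighbours in this order to change places between the groups. Rxrg stood above Pparg in 4 of 7 libraries, which were the 3 of ATG7 and EYFP 4. Ppard made up 95.6% ± 1.14 (SD, n = 4) of the summed level of Ppard and Pparg in EYFP and 96.1% ± 0.556 (SD, n = 3) in ATG7. Nr1h2 made up 93.8% ± 0.820 and 92.6% ± 1.27 of the liver X receptor sum, and Rarg 57.4% ± 3.75 and 60.2% ± 2.53 of the retinoic acid receptor sum. In each family apart from the retinoid X receptors, the shares overlapped between the groups.

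**Figure D2:**
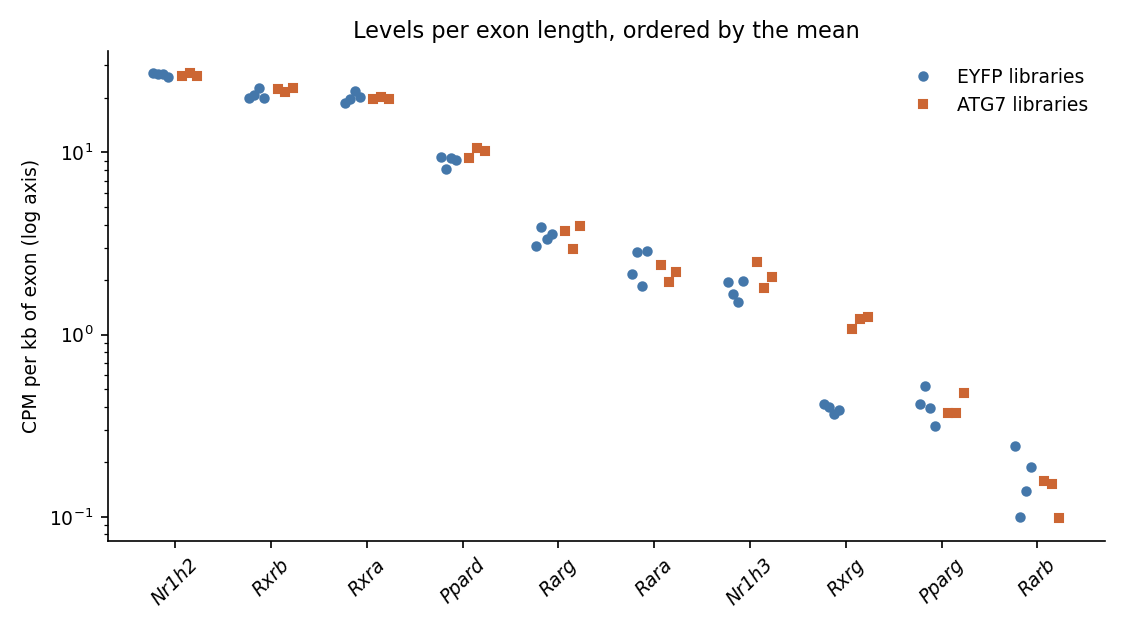
Points give CPM per kb of exon (log axis) of each receptor gene in the EYFP (circles) and ATG7 (squares) libraries, ordered by the mean over all 7. Nr1h2, Rxrb and Rxra lie at 18.7 to 27.3 CPM per kb, and Rxrg lies at 0.367 to 0.416 in EYFP and 1.08 to 1.25 in ATG7.

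Genes around the receptors were counted in 7 lists, of ligand supply, partners, coregulators and textbook targets. Of their 118 genes 102 could be tested, and 1 of those, Ch25h, passed an edgeR adjusted p under 0.05, or 0.980% beside 0.755% of all genes. At an unadjusted p under 0.05, 7 were higher and 17 lower in ATG7. Over all genes tested these backgrounds are 6.27% higher and 5.71% lower. The lists were chosen with earlier results of these data known. Counts over them and adjusted p-values of their genes, Ch25h included, are therefore given as a description and not used as evidence.

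Ch25h encodes cholesterol 25-hydroxylase, the enzyme that makes 25-hydroxycholesterol, an oxysterol that liver X receptors bind. It lies on chromosome 19 (34473778 to 34475164, minus strand). Ch25h measured 2.16, 1.72, 1.49 and 2.26 CPM in EYFP 1 to 4 beside 5.40, 7.08 and 4.67 CPM in ATG7 1 to 3. Every ATG7 library was above every EYFP library. The log2 fold change of Ch25h was 1.59 (SE 0.21), with an edgeR adjusted p = 0.00982. Without ATG7 2 the log2 fold change was 1.40 and the edgeR adjusted p = 0.0537, so the call needs that library. Leaving out any other library gave edgeR adjusted p-values from 0.00632 to 0.0399.

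The rest of the 11 genes of oxysterol and fatty acid ligand supply did not pass in edgeR, and their list had a median log2 fold change of 0.02. At an unadjusted p under 0.05, 2 of the 11 were higher and 2 lower, beside 6.27% and 5.71% of all genes tested. Cyp46a1, the neuronal cholesterol 24-hydroxylase, had a log2 fold change of -0.49 (SE 0.16) and an edgeR adjusted p = 0.231, with EYFP 3 inside the ATG7 range.

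Retinoid supply holds the genes that take up retinol, oxidise it to retinoic acid and degrade it. Of its 25 genes 20 were tested, and 0 passed in edgeR or DESeq2. At an unadjusted p under 0.05 there was 1 higher and 4 lower, beside 6.27% and 5.71% of all genes tested. The median log2 fold change was -0.14. Stra6, the retinol uptake receptor, measured 64.7, 86.4, 68.1 and 78.2 CPM in EYFP and 65.9, 57.6 and 57.9 CPM in ATG7, with a log2 fold change of -0.30 (SE 0.10) and an edgeR adjusted p = 0.267.

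Rdh10 and Dhrs3 act in opposite directions, since Rdh10 oxidises retinol to retinal and Dhrs3 reduces retinal back. Rdh10 measured 43.7, 49.6, 46.4 and 45.6 CPM in EYFP and 38.5, 39.2 and 42.7 CPM in ATG7, without overlap, at -0.21 on the log2 scale (SE 0.07, edgeR adjusted p = 0.278). Dhrs3 measured 147, 132, 148 and 131 CPM in EYFP and 155, 158 and 172 CPM in ATG7, also without overlap, at 0.22 on the log2 scale (SE 0.08, edgeR adjusted p = 0.286). Neither passed the test. The list includes Ttr, which is also among the choroid plexus markers, and Stra6 is known from that epithelium too. The part of choroid plexus RNA in these values was not tested.

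Among the liver X receptor targets, 0 of 18 tested genes passed in edgeR. At an unadjusted p under 0.05, 3 were higher and 2 lower, beside 6.27% and 5.71% of all genes tested. The median log2 fold change was 0.02. Abca1 and Abcg1, the transporters that move cholesterol out of the cell, were at higher values in every ATG7 library than in any EYFP library. Abca1 measured 541, 479, 513 and 493 CPM in EYFP and 594, 681 and 588 CPM in ATG7, a log2 fold change of 0.29 (SE 0.09, edgeR adjusted p = 0.182).

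Abcg1 measured 129, 112, 135 and 135 CPM in EYFP and 143, 162 and 156 CPM in ATG7, a log2 fold change of 0.27 (SE 0.08, edgeR adjusted p = 0.219). Scd1, the desaturase that makes monounsaturated fatty acids, was lower in every ATG7 library. Its level was 111, 129, 92.2 and 122 CPM in EYFP and 80.8, 88.9 and 88.0 CPM in ATG7, a log2 fold change of -0.40 (SE 0.11, edgeR adjusted p = 0.144). DESeq2 called Abca1 and Scd1, and without EYFP 3 edgeR called Scd1 at -0.50 on the log2 scale and an adjusted p = 0.0282. EYFP 3 held the lowest EYFP value of Scd1. With any other library left out Scd1 did not pass, at edgeR adjusted p-values from 0.12 to 0.377, nor with the replicate block (edgeR adjusted p = 0.634).

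Targets of the peroxisome proliferator-activated receptors are mostly genes of fatty acid oxidation and lipid droplets. Of 23 tested, 0 passed in edgeR. At an unadjusted p under 0.05, 1 was higher and 8 were lower, beside 6.27% and 5.71% of all genes tested. Of the 23, 22 had a log2 fold change below 0, and the share of all genes below 0 was not counted. The median was -0.21, beside -0.00365 over all genes tested. Plin2, which coats lipid droplets, was the exception. It measured 29.9, 30.9, 30.5 and 28.6 CPM in EYFP and 36.6, 36.2 and 38.4 CPM in ATG7, without overlap, at 0.31 on the log2 scale (SE 0.07, edgeR adjusted p = 0.0836), and it was the 1 gene of the list that DESeq2 called.

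Slc25a20, the mitochondrial carnitine carrier, measured 22.4, 29.4, 25.01 and 29.2 CPM in EYFP and 21.6, 20.7 and 22.5 CPM in ATG7. Vldlr, a lipoprotein receptor, measured 93.2, 109, 86.2 and 113 CPM in EYFP and 80.9, 84.1 and 88.2 CPM in ATG7. Their log2 fold changes were -0.29 (SE 0.10) and -0.25 (SE 0.10), with edgeR adjusted p = 0.285 and 0.330. In both genes EYFP 2 and EYFP 4 stood high, while EYFP 1 or EYFP 3 lay inside the ATG7 range.

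Markers of the choroid plexus epithelium had the same sign as these targets: all 9 had a log2 fold change below 0, with a median of -0.27. At an unadjusted p under 0.05, 3 of the 9 were lower, beside 5.71% of all genes tested. In edgeR and in DESeq2 0 passed, and EYFP 2 and EYFP 4 had the highest summed levels. The part of that RNA in the values of the target list was not tested. In bulk libraries such as these, fewer cells of a type and less RNA per cell cannot be told apart.

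Retinoic acid targets were mostly too low to test. Of 9 genes 4 were tested and 0 passed in edgeR or DESeq2, 0 also at an unadjusted p under 0.05, with a median log2 fold change of 0.11. Tgm2, the transglutaminase induced by retinoic acid, measured 57.6, 57.0, 66.9 and 49.4 CPM in EYFP and 63.6, 56.5 and 65.9 CPM in ATG7, overlapping, at 0.10 on the log2 scale (SE 0.10, edgeR adjusted p = 0.754; 0.18 without EYFP 3). The homeobox genes Meis1 and Meis2 had log2 fold changes of 0.12 (SE 0.20) and 0.15 (SE 0.23). Classic retinoic acid targets such as Cdx1 and Stra8 did not pass the filter on low counts.

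Other receptors that pair with retinoid X receptors gave 0 of 7 tested genes in edgeR and DESeq2, and 0 at an unadjusted p under 0.05. The thyroid hormone receptors Thrb and Thra had log2 fold changes of -0.30 (SE 0.14) and -0.14 (SE 0.08), and the bile acid receptor Nr1h4 was below 1 CPM in every library. Coactivators and corepressors gave 0 of 19 in both tools. At an unadjusted p under 0.05 they held 1 lower gene, beside 5.71% of all genes tested. That gene was Hdac3, the deacetylase of the corepressor complex. It measured 61.7, 69.1, 67.6 and 66.4 CPM in EYFP and 56.2, 56.6 and 58.6 CPM in ATG7, without overlap, at -0.21 on the log2 scale (SE 0.07, edgeR adjusted p = 0.208). The coactivators Ppargc1a and Ncoa3 overlapped between the groups, at -0.27 (SE 0.13) and 0.17 (SE 0.10) on the log2 scale.

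**Figure D3:**
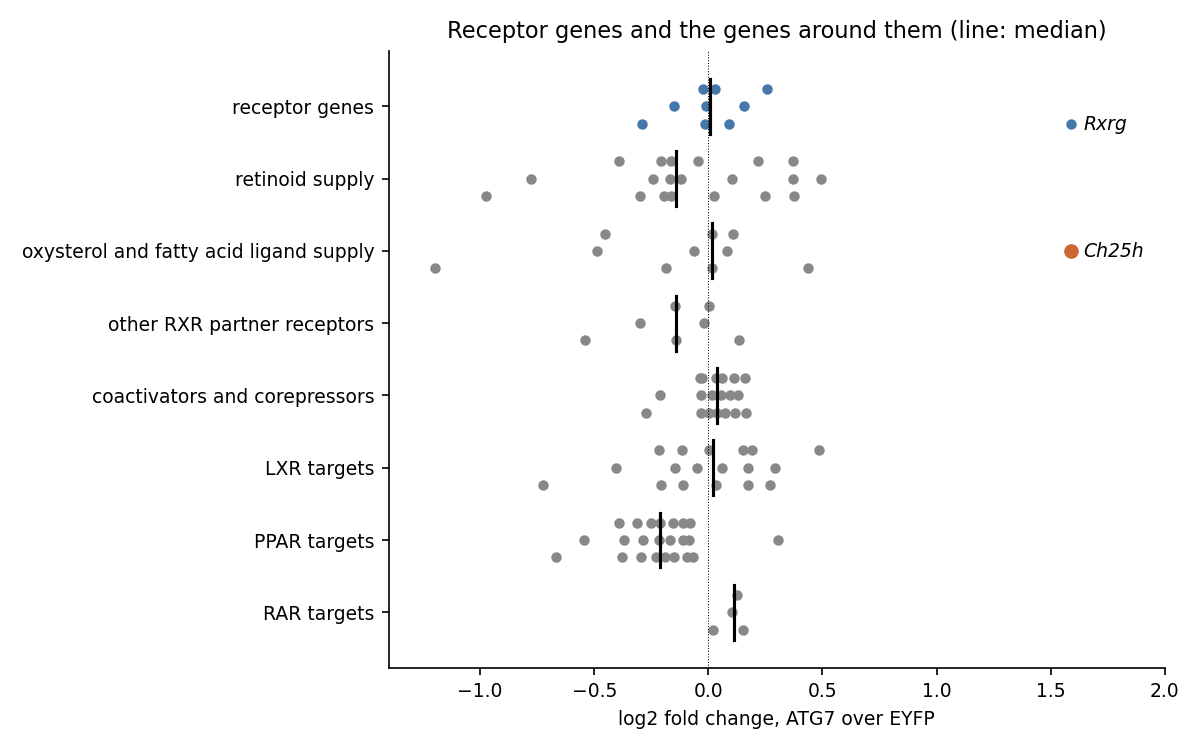
Each point is the log2 fold change of ATG7 over EYFP of 1 tested gene, by list, with the 10 receptor genes on top and a line at each median. Rxrg and Ch25h both lie at 1.59, Ch25h is drawn in orange as the 1 list gene that passed, and 22 of the 23 targets of the peroxisome proliferator-activated receptors lie below 0.

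Genes most like Rxrg over the 7 libraries were ranked by Pearson's r of log2 CPM among 15033 genes with a mean of at least 1 CPM. This r carries the difference between the groups and is a description. The first 5 were Bcl2a1b (0.994), Cd274 (0.992), Fcgr4 (0.991), H2-Oa (0.989) and Hcar2 (0.984). Bcl2a1b is a survival gene with near-identical copies, so its own count is uncertain. Cd274 encodes the checkpoint ligand PD-L1, Fcgr4 an activating receptor for IgG, H2-Oa a regulator of class II peptide loading, and Hcar2 a receptor for hydroxycarboxylic acids.

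All 5 were higher in every ATG7 library than in any EYFP library, by different amounts. A ranking by likeness to Rxrg favours genes of this order, so nothing is read from it. Over all genes tested, the groups did not overlap for 11.2%, in either direction. Fcgr4 measured 13.4, 12.4, 10.4 and 10.04 CPM in EYFP and 28.6, 32.3 and 32.0 CPM in ATG7, a log2 fold change of 1.42. Hcar2 measured 7.76, 7.37, 7.65 and 5.94 CPM in EYFP and 18.7, 21.0 and 18.8 CPM in ATG7, a log2 fold change of 1.44. Cd274 had a log2 fold change of 0.87, Bcl2a1b of 0.41 and H2-Oa of 0.39.

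With the group means removed, the 5 highest were Arl5c (0.995), Stam (0.994), AW554918 (0.990), Gm29093 (0.989) and Evi5l (0.989). Of the first 5, Cd274 and H2-Oa still had an r of 0.969 and 0.940 on this scale, Fcgr4 0.796, Bcl2a1b 0.641 and Hcar2 0.262. The deviations of Rxrg are smaller than its counting error, which limits what this second ranking can show. Among the receptor genes, Ppard came nearest to Rxrg in log2 CPM, with an r of 0.72. With the group means removed Ppard was at 0.38, and Pparg came nearest at 0.43.

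**Figure D4:**
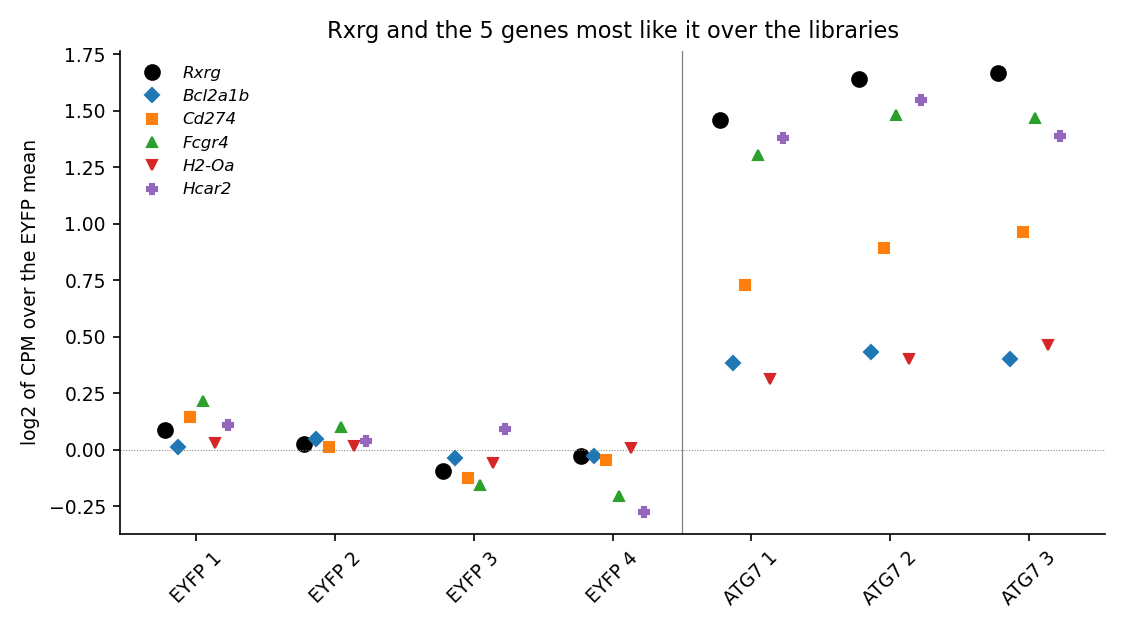
Points give the log2 of CPM over the EYFP mean for Rxrg and the 5 genes with the highest r in each library, with the groups parted by a vertical line. Rxrg, Fcgr4 and Hcar2 lie between about 1.3 and 1.7 in the ATG7 libraries, and Cd274, Bcl2a1b and H2-Oa are nearer to 0.

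Cell types known to express Rxrg were followed by their markers. The summed level of 12 striatal projection neuron markers was 315 to 491 CPM in EYFP and 308 to 418 CPM in ATG7, with Drd2, Tac1 and Gpr6 at 3 counts or fewer in every library. Ppp1r1b alone made up 283.5 to 457.6 CPM and Six3 15.7 to 25.4 CPM, while the dopamine receptor Drd1 was at 0.0245 to 0.222 CPM, so the sum says little about striatal neurons. The oligodendrocyte lineage sum was 181 to 444 CPM in EYFP and 209.8 to 299.6 CPM in ATG7, and the neuronal sum was 30.04 to 162.2 CPM and 38.7 to 61.6 CPM. Each overlapped between the groups, and 0 of the 10 oligodendrocyte, 0 of the 8 neuronal and 0 of the 7 striatal markers tested passed in edgeR or DESeq2, 0 also at an unadjusted p under 0.05.

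Lymphocyte markers were low, but their summed level did not overlap between the groups. The sum of Cd3e, Cd3g, Cd79a, Ms4a1, Nkg7 and Trbc2 was 1.13 to 3.42 CPM in EYFP and 3.997 to 10.34 CPM in ATG7, highest in ATG7 3. In edgeR 0 of the 5 tested passed and 4 were higher at an unadjusted p under 0.05, and DESeq2 called 2. The backgrounds over all genes tested are 6.27% higher at that unadjusted p and 3.24% called by DESeq2. The 4 higher genes were Cd3e, Cd3g, Nkg7 and Trbc2, of T and NK cells. The B cell markers did not share this: Cd79a had a log2 fold change of -0.009 (SE 0.39). Ms4a1, too low to test, had means of 0.199 CPM in EYFP and 0.116 CPM in ATG7. The 9 markers of border and blood myeloid cells, which also carry CD11b, summed to 443 to 554.5 CPM in EYFP and 460.2 to 616 CPM in ATG7, overlapping. Of them 0 passed in edgeR, 2 were higher at an unadjusted p under 0.05, and DESeq2 called 1. Plac8, a gene of blood monocytes, measured 4.15, 4.25, 1.80 and 2.70 CPM in EYFP and 4.70, 11.4 and 10.3 CPM in ATG7, without overlap, at 1.45 on the log2 scale (SE 0.35, edgeR adjusted p = 0.128). Ly6c2, a marker of classical monocytes, was at 1.47 (SE 0.53, edgeR adjusted p = 0.330), with overlapping groups, and Ccr2 at -0.03 (SE 0.13). The part of lymphocyte and blood myeloid RNA in the Rxrg and Ch25h values was not tested. Without EYFP 3, the library with Xist, the log2 fold change of Ch25h was 1.48 and its edgeR adjusted p = 0.0121.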

How the data were processed

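RNA-seq libraries of CD11b-enriched hippocampal cells were grouped by their titles into EYFP (n = 4) and ATG7 (n = 3). The authors deposited raw counts per gene, made with fastp 0.20.1, HISAT2 2.0.5 and featureCounts on mm10 (GRCm38), per the submitters' processing notes. Strand and shared-read settings are not given in the sources used here. The 37 mitochondrial genes are listed at 0. Symbols, positions and exon lengths came from GENCODE M21, which gave symbols to 55141 of the 55401 identifiers and none to 260.

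Counts were fitted over all genes in edgeR 4.0.16 by its quasi-likelihood test (R 4.3.3; TMM, filterByExpr, two-sided), with Benjamini-Hochberg adjustment at 0.05. DESeq2 1.42.0, other scalings, no filter, a replicate block and leaving out each library were alternatives. The fit was tested on simulated data. CPM were scaled by TMM factors; their log2 values carry a prior count of 2. Intervals are exact Poisson and cover counting error only. The members and the lists were chosen with earlier results of these data known. Named were all receptor genes, the passing members and the 3 with the smallest p of each list, and the 5 genes most like Rxrg by each measure. Some list members are not reported here. Promoter windows of 250 bases came from RefSeq, which matched all 10 receptor genes.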

Additional observations from a re-analysis of the deposited data

How the results depend on the processing

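The log2 fold change of each of the 10 receptor genes moved by less than its spread between libraries under every alternative run, with Rxrg from 1.55 to 1.65. Rxra, Rarg and Pparg, all near 0, took both signs. The number of genes called over the whole table was not stable: beside 145 it was 297 with no filter, 572 with DESeq2, and between 28 and 277 with 1 library left out (277 without EYFP 1, 94 without EYFP 2, 30 without EYFP 4, 28 without ATG7 2 and 30 without ATG7 3). With the replicate block over the libraries numbered 1 to 3 it was 0. The labels do not say whether equal numbers mark paired libraries. Correlations of the deviations from the group means were -0.061, -0.182 and 0.066 for same-numbered libraries. Differently numbered libraries gave -0.145 to 0.215. With so few libraries these values cannot settle whether the numbers pair them. With the replicate block, Ch25h was at 1.67 on the log2 scale (edgeR adjusted p = 0.157).

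For the ligand supply list the count of 1 became 2 with no filter and with DESeq2, 0 with the replicate block, and 0 to 2 with 1 library left out (0 without ATG7 2, 2 without EYFP 1). For the liver X receptor targets 0 became 1 with no filter, 2 with DESeq2, and 0 to 1 with 1 library left out (1 without EYFP 3). For the targets of the peroxisome proliferator-activated receptors it became 1 with DESeq2. The other 4 lists stayed at 0. Per kb of the longest transcript in place of all exons, the order of the receptor genes was the same and levels were 44.8 for Nr1h2, 32.3 for Rxrb, 22.2 for Rxra, 19.0 for Ppard (19.04), 5.05 for Rarg, 3.0 for Rara, 2.44 for Nr1h3, 0.571 for Pparg and 0.260 for Rarb. The cause of these shifts was not tested, other than that a shorter length raises a level per kb. Depth limits Rxrg, Rarb and Pparg most, with counts of 24 to 154 per library.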
